A study of Mus musculus with 12 samples.

Results

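Cpa3 and Tpsb2 are genes of mast cell granule proteases, and both are among the 760 genes of the nCounter mouse Fibrosis V2 panel (NanoString), in which barcoded probes bind and count chosen RNAs. These 2 genes were chosen by symbol after their high values in 1 library of CD34+ cells had been seen, so their levels are described here and for this pair the comparisons that hold that library carry no test. Female FVB/N mice received from the age of 3 weeks, and for 16 weeks in all, either high-fat food (58Y1 of Test Diet) or low-fat food (Teklad Global 2920X). Replicate numbers were taken as mice, 3 per diet, from the likeness of same-numbered samples. Live CD45+CD11b+ white blood cells of the mammary glands were sorted by CD34, after collagenase for 1 hour and trypsin, into CD34- cells, called monocytes and macrophages in the labels, and CD34+ cells, called myeloid progenitors. The 4 groups were high-fat CD34- cells, high-fat CD34+ cells, low-fat CD34- cells and low-fat CD34+ cells, each of 3 libraries numbered 1 to 3. Each library is a bulk sample, in which a change in the number of cells of a type and a change in RNA per cell cannot be told apart.

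Mast cells are tissue-resident cells that arise from CD34-bearing bone marrow progenitors and store proteases, histamine and heparin in secretory granules. Cpa3 encodes carboxypeptidase A3, a metalloprotease that trims amino acids from the carboxyl end of peptides and that basophils also express. Tpsb2 encodes tryptase beta 2, also called mouse mast cell protease 6, a serine protease that works as a heparin-bound tetramer. Receptors for IgE (encoded by Fcer1a, Ms4a2 and Fcer1g) trigger the release of the granules, and Hdc encodes histidine decarboxylase, the enzyme that makes histamine.

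The start region of Cpa3 is shown because it is the gene's stretch of regulatory DNA in the RefSeq table used here, which held a window for 1 of the 2 genes. The 250 bases before the transcription start on the minus strand (GRCm38.p6, chr3:20242182-20242431) are printed 5′ to 3′, with capitals for motif matches on either strand. The motifs searched were the GATA factor motif spelled AGATAA, its variant spelled TGATAA, the E-box spelled CANNTG and the TATA box spelled TATAAA.
Cpa3: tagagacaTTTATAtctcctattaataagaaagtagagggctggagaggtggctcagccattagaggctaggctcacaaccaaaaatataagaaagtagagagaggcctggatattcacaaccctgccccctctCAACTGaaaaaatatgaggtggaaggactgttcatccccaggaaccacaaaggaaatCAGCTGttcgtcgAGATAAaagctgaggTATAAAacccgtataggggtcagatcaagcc
A single AGATAA began 46 bases before the start, and E-box matches began 116 and 59 bases before it. TATAAA began 31 bases before the start and again, on the other strand, 242 bases before it. No 2 of these matches overlapped. The first GATA spelling was held by 9.99% of 32851 windows of the same length, the variant, which Cpa3 lacked here, by 7.94%, the E-box by 66.2% and the TATA box by 12.4%. These matches describe letters and not sites of binding.

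In CD34+ cells of the low-fat diet, the Cpa3 value on the deposited log2 scale was 9.30 in replicate 3, against 4.55 in replicate 1 and 2.06 in replicate 2. The whole counts recovered from these values were 801 in replicate 3, against 20 and 2 in replicates 1 and 2. Tpsb2 behaved alike, with log2 values of 9.39 in replicate 3, against 4.13 and 2.06 in replicates 1 and 2. Its counts were 854 in replicate 3, against 15 and 2. Replicate 3 was thus far above its own group for both genes, and replicate 2 was at the low end of all 12 libraries. At a total of 406892 counts, Cpa3 took 0.197% of the counts of replicate 3 (exact 95% binomial interval 0.183% to 0.211%) and Tpsb2 0.210% (0.196% to 0.224%). Such intervals cover counting error only, since amplified molecules are not independent.

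**Figure D1:**
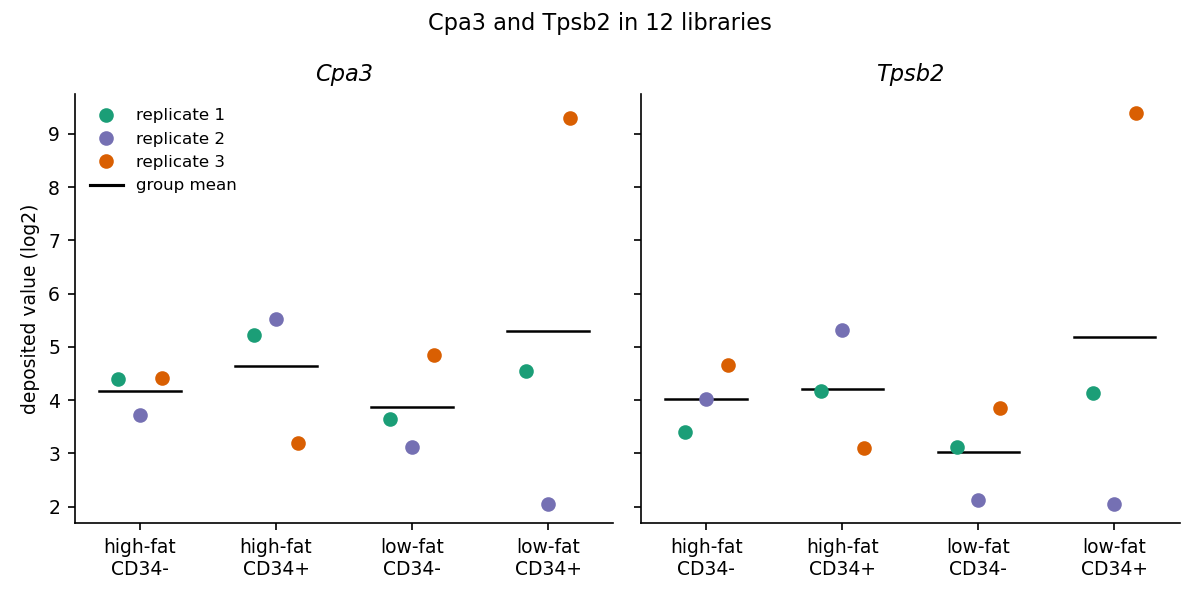
Deposited log2 values of Cpa3 (left) and Tpsb2 (right) in each library, by diet and sorted population; points are libraries coloured by replicate number and lines are group means of 3 libraries. Low-fat CD34+ replicate 3 sits at 9.30 and 9.39, and the other 11 libraries lie between 2.06 and 5.53 for Cpa3 and between 2.06 and 5.32 for Tpsb2.

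In the other groups both genes were low, with counts from 4 to 69. In high-fat CD34- cells Cpa3 stood at 4.40, 3.73 and 4.41 in replicates 1, 2 and 3, from 22, 9 and 32 counts. In high-fat CD34+ cells it stood at 5.22, 5.53 and 3.19, from 37, 69 and 18 counts. In low-fat CD34- cells it stood at 3.64, 3.13 and 4.85, from 20, 12 and 8 counts. The 4.85 came from the shallowest library, of 78316 counts in all, where 8 counts allow a true count of 3.45 to 15.8 (exact Poisson interval). Outside low-fat CD34+ replicate 3, the highest Cpa3 value of the series was thus the 5.53 of high-fat CD34+ replicate 2.

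Tpsb2 showed the same order of libraries at the top. In high-fat CD34- cells it stood at 3.40, 4.02 and 4.66 in replicates 1, 2 and 3, from 11, 11 and 38 counts. In high-fat CD34+ cells it stood at 4.18, 5.32 and 3.11, from 18, 60 and 17 counts. In low-fat CD34- cells it stood at 3.13, 2.13 and 3.85, from 14, 6 and 4 counts. High-fat CD34+ replicate 2 was again the second highest library of the 12.

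Low-fat CD34+ replicate 3 exceeded the next highest library by 3.77 log2 units for Cpa3 (13.7-fold) and by 4.07 for Tpsb2 (16.7-fold). In CPM, recovered counts scaled to equal library totals, replicate 3 held 1969 of Cpa3, against 129.5 in high-fat CD34+ replicate 2, a ratio of 15.2 (95% counting interval 11.9 to 19.7). For Tpsb2 it held 2099, against 112.6 in that library, a ratio of 18.6 (14.3 to 24.6). The low-fat CD34- library of the same number, 3, held 102.2 CPM of Cpa3, and the CD34+ library exceeded it 19.3-fold (9.73 to 44.8). For Tpsb2 the same ratio was 41.1 (16.0 to 151.2), with 51.1 CPM in the CD34- library. The high level was thus seen in 1 of the 2 libraries that share this number and diet.

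A filter kept 594 genes, those that reached 20 on the linear scale in 3 libraries or more, and both genes passed it. Tpsb2 passed with exactly 3 libraries, 1 of which was low-fat CD34+ replicate 3. Each kept gene was set against its own group by subtracting the mean of the other 2 libraries. In low-fat CD34+ replicate 3 this excess was 6.30 log2 units for Tpsb2 and 5.995 for Cpa3, which ranked 1 and 2 of 594 genes. The median over all kept genes in that library was 0.28, and the 95th percentile was 1.53. In replicate 2 of that group Cpa3 and Tpsb2 had the lowest excesses of all kept genes, at -4.87 and -4.70. Its mean of the other 2 libraries includes replicate 3, as does that of replicate 1, where the excesses were -1.13 and -1.59. Replicate 2 was also below replicate 1, at 2.06 for each gene against 4.55 for Cpa3 and 4.13 for Tpsb2.

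**Figure D2:**
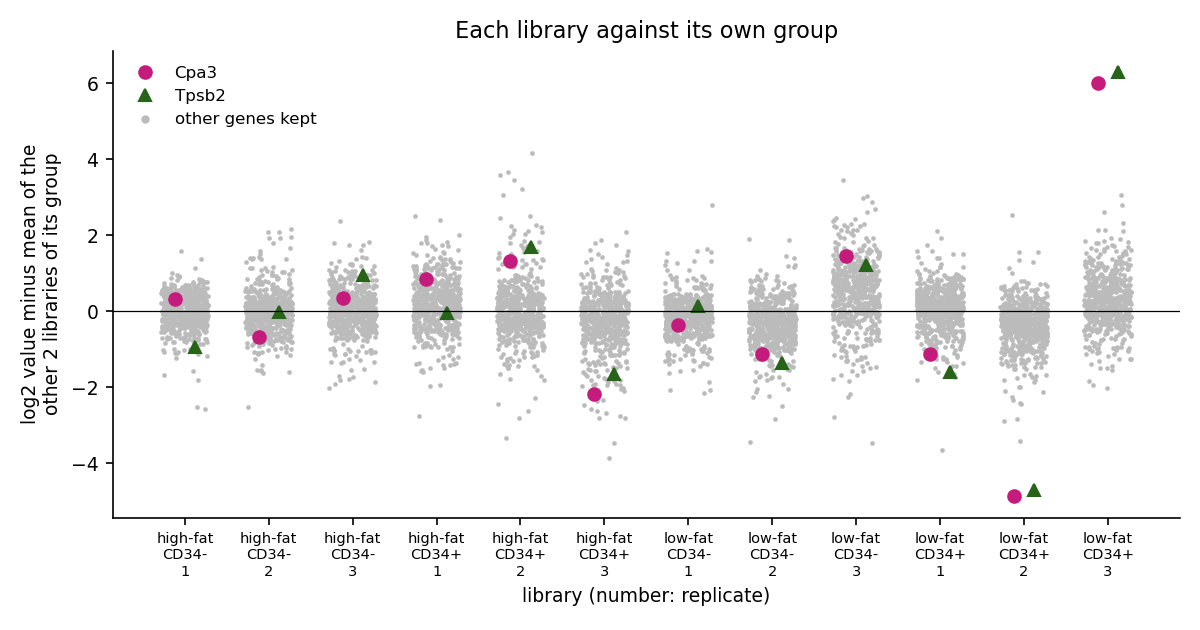
For each library (x axis) every kept gene is a grey point at its log2 value minus the mean of the other 2 libraries of its group (y axis), with Cpa3 as circles and Tpsb2 as triangles. In low-fat CD34+ replicate 3 both genes lie near 6 and above all other genes, and in replicate 2 of that group they lie below all other genes.

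Elsewhere the 2 genes lay within the spread of the panel or near its edge. In high-fat CD34+ cells the excess was 1.32 for Cpa3 and 1.68 for Tpsb2 in replicate 2 (ranks 38 and 25 of 594). In replicate 3 of that group it was -2.18 and -1.64, against a 5th percentile of -1.64 over all genes there. In low-fat CD34- replicate 3 it was 1.47 and 1.22, in a library whose median excess over all genes was 0.56. In the remaining libraries outside the low-fat CD34+ group it lay between -1.36 and 0.95. Single libraries of high-fat CD34+ cells thus differed in the same direction for both genes, in replicate 2 upward and in replicate 3 downward.

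After Tpsb2 and Cpa3, the largest excesses in low-fat CD34+ replicate 3 were much smaller. Eln, which encodes elastin, stood at 3.05 from 33 counts, against 1, which may stand for 0, and 4 in replicates 1 and 2. The chemokine receptor gene Ccr4 stood at 2.79, the granzyme gene Gzmb at 2.62 and the fibronectin gene Fn1 at 2.33. Maml1, of a Notch co-activator, Lpl, of lipoprotein lipase, Pltp, of a phospholipid transfer protein, and Mmp9, of a metalloprotease, lay between 1.93 and 2.15. All 8 of these genes were higher in at least 1 other library of the series. Among the lowest excesses were those of Adh1 (-2.00), Fgb (-1.93), Il17a (-1.83) and Cxcl11 (-1.49).

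Of the 594 kept genes, 58 (9.76%) had their highest value of the series in low-fat CD34+ replicate 3. Only Cpa3 and Tpsb2 of these exceeded the next library by over 1 log2 unit, and the next margins were 0.86 for Ccr2, 0.83 for Egr1 and 0.75 for Capn5. By comparison, high-fat CD34+ replicate 2 had 17 genes with such a margin, led by Col1a1 at 3.51, and low-fat CD34- replicate 3 had 13. The margins of Tpsb2 and Cpa3 were the 2 largest of any kept gene in any of the 12 libraries.

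The panel held 7 of 29 listed mast cell genes, and apart from Cpa3 and Tpsb2 these did not follow the same pattern by size. Fcer1a, of the IgE-binding chain, stood at 5.24 in low-fat CD34+ replicate 3, from 48 counts, against 3.55 and 2.06 in replicates 1 and 2, from 10 and 2 counts. It was above all other libraries there, of which the highest stood at 4.85 from 8 counts. Ms4a2, of the beta chain, stood at 3.11 in replicate 3, against 3.23 and 4.23 in replicates 1 and 2, all from 11 counts or fewer. Fcer1g, of the gamma chain that macrophage Fc receptors share, stood at 11.02 in replicate 3, against 10.54 and 10.47. Hdc stood at 6.34 in replicate 3, against 5.43 and 3.64, and was higher in 5 other libraries, all of CD34- cells.

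Tpsab1, a tryptase gene next to Tpsb2 on chromosome 17 with no annotated gene between them, stood at 3.56 in replicate 3, against 3.55 and 4.06 in replicates 1 and 2. Its counts were 15 in replicate 3, against 10 and 8, and its highest value was 5.17, from 10 counts, in low-fat CD34- replicate 3. RefSeq annotates it as a transcribed pseudogene in the C57BL/6J reference genome, which is another strain than FVB/N. The high Tpsb2 value thus had no match in the signal of the neighbouring tryptase gene. The sequences of the probes were not used here.

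Among genes that basophils or eosinophils also use, Il4, which encodes interleukin 4, stood at 4.11 in replicate 3, from 22 counts, against 0.23 and 1.06, from 1 count each in replicates 1 and 2, the smallest value of those libraries, which may stand for 0. Low-fat CD34- replicate 3 stood at 4.17 for Il4, from 5 counts. Siglecf, a lectin gene of eosinophils, stood at 5.51 in replicate 3, against 4.81 and 3.06, below 2 other libraries of the series. Of the 5 measured basophil genes, 4 had at most 103 counts in that library, and Cpa3 was the fifth. Kit and the chymase genes of the mast cell list were not found by symbol among the 760 genes.

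Genes of other cell types also differed between these libraries. In low-fat CD34+ replicate 3, 9 of 10 T cell genes, 4 of 4 macrophage genes and 5 of 9 fibroblast genes were above both other libraries of the group. So were 6 of 10 natural killer cell genes and 3 of 4 neutrophil genes. The same held for 2 of 4 B cell genes, 2 of 5 endothelial genes and 2 of 6 fat cell genes. The median excess was 1.26 for T cell, 1.18 for neutrophil, 0.76 for fibroblast and 0.76 for natural killer cell genes. It was 0.73 for endothelial, 0.59 for macrophage, 0.29 for B cell and 0.25 for fat cell genes, against 0.28 over all kept genes. The share of all kept genes above both others was not counted in any library, so such counts have no baseline here. Summed T cell genes came to 9666 CPM in replicate 3, against 4242 and 4385 in replicates 1 and 2. Summed fibroblast genes came to 15736 in replicate 3, against 3917 and 3813, and summed macrophage genes to 16825, against 12232 and 8801. Most of that fibroblast sum was the single gene Fn1, with 5388 counts in replicate 3, against 688 and 422. In high-fat CD34+ replicate 2, the second highest library for both genes, 8 of 9 fibroblast genes and 9 of 10 T cell genes were above both other libraries. Fibroblast genes summed there to 32365 CPM, against 15660 and 18571 in replicates 1 and 3. The part of these other cells in the levels of Cpa3 and Tpsb2 was not tested. Macrophage genes summed to 14426 to 28724 CPM in the 6 high-fat libraries and 8209 to 16825 in the 6 low-fat ones. By population they summed to 8209 to 21279 in CD34- libraries and 8801 to 28724 in CD34+ ones, so these markers were present in both populations. Low-fat CD34+ replicate 3 did not stand apart in the gene of the sort marker, as Cd34 was at 5.78 there, against 5.84 and 4.96, nor in Ptprc, the gene of CD45, at 11.13, against 11.07 and 10.75. In CD34- minus CD34+ cells Cd34 differed by -0.34 in high-fat mice, where the groups overlapped (limma adjusted p = 0.707). In low-fat mice it differed by -1.68 (limma adjusted p = 0.0475), where 9.76% of all kept genes passed.

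The count ratio of Cpa3 to Tpsb2 in the library where both were high lay within the range of the other libraries. Since probes differ in efficiency, only the ratio between libraries can be read. Cpa3 over Tpsb2 counts was 0.94 in low-fat CD34+ replicate 3 (95% counting interval 0.85 to 1.03) and ran from 0.82 to 2.06 in the other 11 libraries. The interval of 1 of those 11, high-fat CD34+ replicate 1, did not meet that of low-fat CD34+ replicate 3, at 2.06 (1.14 to 3.84). Low counts made the other intervals wide, up to 0.07 to 13.8 in low-fat CD34+ replicate 2, so their overlap does not show equal ratios. Across the 12 libraries the log2 values of the 2 genes had a correlation of 0.96 by Pearson's r and of 0.92 by Spearman's rho. Without low-fat CD34+ replicate 3 they were 0.87 and 0.89 over 11 libraries, and without the 2 libraries farthest from the median Cpa3 value 0.82 and 0.85. Points of the same number and diet were taken to share a mouse, and both genes of a point share its depth. With each library re-centred on its median rho was 0.78 over 12.

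**Figure D3:**
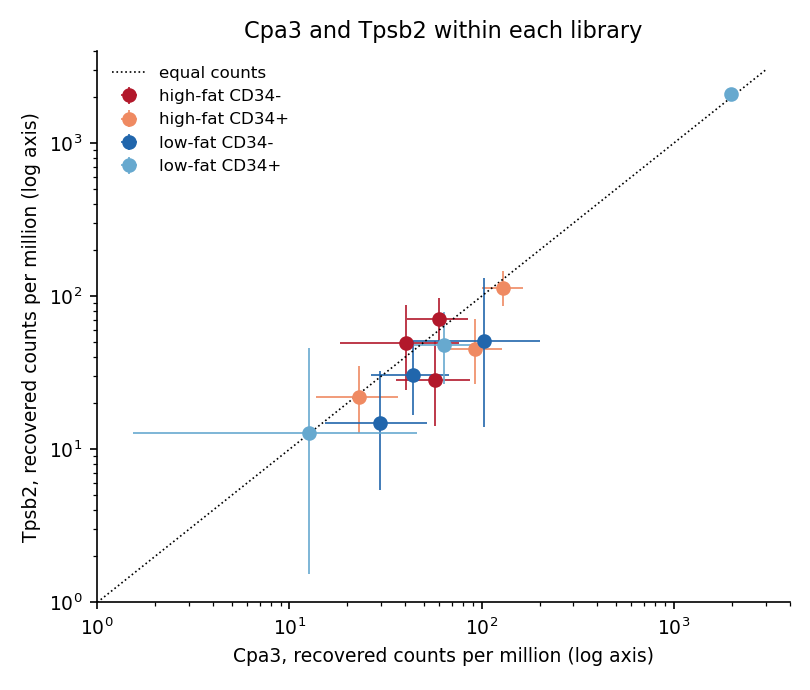
Recovered CPM of Cpa3 (x, log axis) and Tpsb2 (y, log axis) in each of the 12 libraries, coloured by group, with exact 95% intervals of counting error and a dotted line of equal counts. Low-fat CD34+ replicate 3 lies at 1969 and 2099, and the other 11 libraries lie between 12.7 and 129.5 for Cpa3 and between 12.7 and 112.6 for Tpsb2.

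The group means varied with single libraries. For Cpa3 they were 4.18 ± 0.39 in high-fat CD34- cells, 4.64 ± 1.27 in high-fat CD34+ cells, 3.87 ± 0.88 in low-fat CD34- cells and 5.30 ± 3.68 in low-fat CD34+ cells (SD, n = 3 each). For Tpsb2 they were 4.03 ± 0.63 in high-fat CD34- cells, 4.203 ± 1.11 in high-fat CD34+ cells, 3.03 ± 0.86 in low-fat CD34- cells and 5.19 ± 3.78 in low-fat CD34+ cells. The group with the highest mean also held the lowest value of each gene, and the groups overlapped for both genes in all 4 comparisons. That lowest value, 2.06 in replicate 2, came from 2 counts (exact Poisson interval 0.24 to 7.22) in a library of 157361. For Tpsb2 it was close to the 2.13 of low-fat CD34- replicate 2, from 6 counts. Groups with no overlap were found for 31.8% of kept genes between populations in high-fat mice, 25.1% in low-fat mice, 19.9% between diets in CD34+ cells and 29% in CD34- cells. As a description with no test, low-fat CD34- minus CD34+ cells came to -1.43 for Cpa3 and -2.16 for Tpsb2. Without low-fat CD34+ replicate 3 these differences were 0.57 and -0.06. Likewise high-fat minus low-fat diet in CD34+ cells came to -0.66 for Cpa3 and -0.99 for Tpsb2, and without that library to 1.34 and 1.11, of the opposite sign. Replicate 2 of the group moved them the other way. Without it the low-fat population differences were -3.05 and -3.73, and the diet differences in CD34+ cells were -2.28 and -2.56. Without high-fat CD34+ replicate 3 the diet difference was 0.07 for Cpa3 and -0.44 for Tpsb2.

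The 2 comparisons that do not hold that library were tested with limma on all 594 kept genes. In high-fat mice, Cpa3 in CD34- minus CD34+ cells differed by -0.46 ± 1.30 (SE, n = 3 per group, 95% interval -3.27 to 2.34, limma adjusted p = 0.838). For Tpsb2 the difference was -0.18 ± 1.33 (-3.04 to 2.69, adjusted p = 0.953). Neither passed, against 8.92% of all kept genes. Both genes were lower in the CD34- library of numbers 1 and 2 and higher in that of number 3, where Cpa3 differed by 1.22 and Tpsb2 by 1.55. The shared estimate of the spread includes low-fat CD34+ replicate 3, and a fit of the 6 high-fat libraries alone gave -0.46 ± 0.63 for Cpa3 (-1.90 to 0.97, limma adjusted p = 0.654) and -0.18 ± 0.61 for Tpsb2 (-1.59 to 1.23, 0.866).

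In CD34- cells, high-fat minus low-fat diet differed by 0.31 ± 1.30 for Cpa3 (SE, n = 3 per group, 95% interval -2.50 to 3.11, limma adjusted p = 0.949) and by 0.99 ± 1.33 for Tpsb2 (-1.87 to 3.85, 0.746). Neither passed, against 5.05% of all kept genes. In a fit of the 6 CD34- libraries alone they were 0.31 ± 0.52 (-0.87 to 1.48, limma adjusted p = 0.796) and 0.99 ± 0.56 (-0.29 to 2.27, 0.339). The Cpa3 difference changed sign to -0.26 with quantile normalization. The Tpsb2 difference was 0.19 with quantile normalization, 0.51 with an offset of 10 on the linear scale, 0.64 on recovered CPM and 0.54 without low-fat CD34- replicate 2. For both genes the interval of the fit of all 12 libraries allows a difference of over 2-fold either way, here and between populations in high-fat mice. Neither gene was in the authors' deposited tables, which list 135, 31, 7 and 117 genes for the 4 comparisons.

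Of the other mast cell genes, Fcer1g and Hdc passed the filter, and Tpsab1, Fcer1a and Ms4a2 did not. In high-fat mice Hdc stood at 7.99, 7.41 and 7.96 in CD34- cells, against 6.01, 5.68 and 4.97 in CD34+ cells, with no overlap. Hdc was higher in CD34- cells by 2.23 ± 0.55 (SE, n = 3 per group, limma adjusted p = 0.0295), unlike Cpa3 and Tpsb2, whose groups overlapped. That call ended without any one of CD34- replicates 1, 2 or 3 or CD34+ replicate 3 (adjusted p 0.116, 0.104, 0.0664 and 0.125). In low-fat mice Hdc differed by 1.60 ± 0.55 in the same direction (adjusted p = 0.0857), and without low-fat CD34+ replicate 3 by 2.20 ± 0.51 (adjusted p = 0.0180). That left-out library had the highest Hdc value of its group. A fit blocked by replicate number within the diet also passed the low-fat difference (limma adjusted p = 0.0102), as did re-centring (0.0311) and quantile normalization (0.0379). Those 4 were the only ones of 22 alternatives in which the low-fat difference passed, and the highest limma adjusted p was 0.256. Fcer1g passed in none of the 4 comparisons (limma, lowest adjusted p = 0.190, and 1 of 4 at an unadjusted p under 0.05).

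A list of mast cell growth factors and mediators had 10 of 25 genes on the panel, of which 8 passed the filter. In high-fat mice 0 of 8 passed between CD34- and CD34+ cells in limma, against 8.92% of all kept genes, with a median of -0.11, against 0.21 over all kept genes. In low-fat mice Ccl2, of a monocyte chemokine, was the 1 of 8 to pass, against 9.76% of all kept genes. It was lower in CD34- cells by 3.06 on the log2 scale (limma adjusted p = 0.0217). Its low-fat CD34- values were 8.02, 8.23 and 4.66, the last from 7 counts in the shallowest library. Without 1 library at a time the difference ran from -3.69 to -1.90, the latter without that library. Without low-fat CD34+ replicate 1 or 3 Ccl2 did not pass (limma adjusted p = 0.0810 and 0.0592). Nor did it pass without both low-fat libraries of number 3 (0.0733) or with quantile normalization (0.0583). Il6, of interleukin 6, was the 1 of 8 to pass between diets in CD34+ cells (2.17 ± 0.42 SE, limma adjusted p = 0.0281, against 2.36% of all kept genes). It was also the 1 of 8 between diets in CD34- cells (2.21 ± 0.42 SE, limma adjusted p = 0.0119, against 5.05% of all kept genes), higher on the high-fat diet in both. The CD34+ call ended without high-fat CD34- replicate 1, high-fat CD34+ replicates 1 or 3, or low-fat CD34+ replicates 1 or 2 (adjusted p of 0.0568 to 0.143), with no mean-variance trend (0.0539) and on its 6 libraries alone (0.0703). The CD34- call ended without high-fat CD34- replicates 1 or 3 or low-fat CD34- replicate 2 (0.0592 to 0.0641). The Il4 and Fgf2 values did not pass the filter, and Il33, which encodes a cytokine that activates mast cells, stood at 3.97 in low-fat CD34+ replicate 3, against 4.23 and 3.86.

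The kept genes whose log2 values were most like the mean of Cpa3 and Tpsb2 over the 12 libraries were Egr1 (Pearson r = 0.84), Arrb1 (0.82), Ccr2 (0.79), Prkaca (0.75), Insr (0.73) and Capn5 (0.72). Egr1 encodes an immediate early transcription factor, Arrb1 beta-arrestin 1, Ccr2 a monocyte chemokine receptor, Prkaca a catalytic subunit of protein kinase A, Insr the insulin receptor and Capn5 a calpain. Each of the 6 had its highest value in low-fat CD34+ replicate 3, by less than 1 log2 unit, with Egr1 at 9.85, against 9.01 in the next library. Without that library, over 11, r was 0.77 for Egr1, 0.76 for Insr, 0.74 for Prkaca, 0.65 for Arrb1, 0.40 for Capn5 and 0.35 for Ccr2. The highest r was then that of Lamc1, which encodes a laminin chain of basement membranes, at 0.92.

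With group means subtracted, the genes most like the pair were Tjp1 (r = 0.95), Gnb4 (0.91), Prkaca (0.91), Hdc (0.90), Nfam1 (0.89) and Insr (0.86). Tjp1 encodes a tight junction scaffold and Gnb4 a G protein beta subunit. Hdc, the gene of the histamine enzyme, was the only other gene of the mast cell list among these 6, and is also on the basophil list. Apart from the pair, only Hdc and Fcer1g of the mast cell list passed the filter and could be ranked. Without low-fat CD34+ replicate 3, over 11 libraries, r was 0.89 for Insr, 0.88 for Hdc and 0.85 for Tjp1. It was then 0.82 for Gnb4, 0.76 for Prkaca and 0.69 for Nfam1. In both high-fat groups Hdc was highest in replicate 1, where Tpsb2 was not. Fcer1g had an r of 0.52 over all 12 libraries with group means subtracted, rank 165 of the other kept genes. These correlations rest on libraries that were taken to share mice and on values that share a library's depth, and are given as descriptions.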

How the data were processed

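RNA of 12 sorted samples was amplified with a low-input kit before counting, per the labels' protocols. Values for 760 genes were deposited on a log2 scale, which the authors had normalized for each sample, with the basis of that scaling not given in the sources used here. The authors' deposited cluster numbers (another kind of value, not a measurement) were not used. Each column was log2 of whole numbers plus 1 constant: values under 300 counts were whole within 0.02, and 98.0% to 99.6% of all values within 0.1. The smallest value was taken as 1 count, which gave totals of 78316 to 780070 per sample. Whether counts of 0 had been set to 1 before deposit is not known, so a count of 1 may stand for 0. Of 760 symbols, 748 matched RefSeq and 9 a synonym.

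The members and lists were chosen with earlier results of these data known. Named genes were the pair, the measured genes of the mast cell, basophil, eosinophil and mediator lists, the 6 most correlated genes, the 10 highest and 5 lowest excesses of low-fat CD34+ replicate 3, Cd34 and Ptprc; Lamc1 and Col1a1 were named after their values were seen. A gene that this rule takes is not reported here. limma 3.58.1 (R 4.3.3, statmod 1.5.0) fitted the means of 4 groups with a mean-variance trend, two-sided, with Benjamini-Hochberg adjustment over 594 genes and a threshold of 0.05. In simulated data of 594 genes it recovered 88.4% of log2 changes of 2 for the high-fat population comparison and 87.5% for the diet comparison in CD34- cells. Of log2 changes of 1 it recovered 49.3% and 48.25% in these 2 comparisons. These rates are averages over genes drawn at random, each with its own spread. They do not describe Cpa3 and Tpsb2, whose SEs were 1.30 and 1.33. No 2 replicates were copies (the lowest chi-square over its degrees of freedom was 15.2). Deviations from group means correlated at 0.31 to 0.43 between same-numbered samples of a diet, and at -0.38 to 0.14 between the others, so numbers were taken as mice within a diet and used as a block in an alternative. Other alternatives changed the filter, the normalization, an offset of 10 on the linear scale, the trend, and the samples fitted, or left out each library.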

Additional observations from a re-analysis of the deposited data

How the results depend on the processing

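The excess of low-fat CD34+ replicate 3 over its group was 5.51 to 5.93 for Cpa3 and 5.81 to 6.23 for Tpsb2 under re-centring, quantile normalization and recovered CPM. The r of the pair was 0.82 without the 2 libraries farthest from the median, 0.87 without low-fat CD34+ replicate 3, and 0.83 without it after re-centring. Neither gene passed in either tested comparison under any alternative run. No value exists at a linear minimum of 50, where both genes fail the filter. The high-fat population difference ran from -1.19 to -0.02 for Cpa3 and from -0.72 to 0.39 for Tpsb2 without 1 library at a time, and Tpsb2 turned positive without CD34- replicate 1 (0.14) or CD34+ replicate 2 (0.39). The diet difference of Cpa3 in CD34- cells was -0.0082 with re-centring, -0.26 with quantile normalization, -0.064 without low-fat CD34- replicate 2, and at most 0.80 without 1 library. The cause was not tested. With the replicate block the high-fat differences stayed at -0.46 and -0.18, and the block changed no call of the pair.

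Counts of genes passing moved as follows. The high-fat population comparison had 53, then 142 with the replicate block, 35 with no trend, 86 without both low-fat libraries of number 3 (chosen after seeing the data) and 0 to 78 without 1 library (0, with 109 at an unadjusted p under 0.05 in limma, without CD34- replicate 1). The low-fat one had 58, then 131 with the replicate block, 34 on recovered CPM and 26 to 69 without 1 library. The diet comparison in CD34+ cells had 14, then 7 with quantile normalization, 0 with no trend, 0 on its 6 libraries alone (110 and 92 at an unadjusted p under 0.05 in limma), 31 without both low-fat libraries of number 3 and 0 to 29 without 1 library. The diet comparison in CD34- cells had 30, then 17 with re-centring, 13 with quantile normalization, 5 on recovered CPM and 4 to 43 without 1 library. Low depth limits values of fewer than about 20 counts, which most values of the pair were.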
